A study of Mus musculus with 14 samples.

Results

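The genotype by IFN-beta interaction is the part of the Morrbid-/- against wild-type difference that depends on whether activated CD8 T cells also received IFN-beta. It was computed for each gene as the difference between genotypes with IFN-beta minus the difference without it, on log2(normalized count + 1), over all 14 libraries. The deposited tables of the settings with and without IFN-beta shared 12539 genes by Entrez identifier, and 9078 of these had a mean of at least 10 in each table and were tested. Of the 9078 genes, 121 passed an adjusted p of 0.05 for the interaction, which is 1.33%. Those 121 genes were then sorted by whether the genotypes also differed in 1 setting, in both or in neither, and with which sign.

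The cells were splenic CD8 T cells of C57BL/6 mice, sorted as naive by high CD62L and low CD44. All were activated for 6 h with 1 µg/mL of plate-bound anti-CD3 and 1 µg/mL of soluble anti-CD28, antibodies that engage the antigen receptor and its costimulatory partner. Without IFN-beta there were 3 wild-type libraries and 3 libraries labelled Morrbid-/-, and with 20 ng/mL recombinant IFN-beta there were 4 of each. The settings also differed in depth and were normalized separately. A dependence on IFN-beta therefore cannot be told apart here from another difference between these sets of libraries. The labels give C57BL/6 as the strain and do not say how the Morrbid allele was made or whether replicates came from separate animals, so the spread behind every p-value is that between samples and could be technical.

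IFN-beta is a type I interferon that signals through the receptor chains IFNAR1 and IFNAR2, the kinases JAK1 and TYK2 and a transcription factor complex that contains STAT2 and IRF9. That complex binds interferon-stimulated response elements, while STAT dimers bind gamma-activated sites, and the genes so induced include guanylate-binding proteins (GBPs), immunity-related GTPases (IRGs), Ifit proteins, nucleic acid sensors and antigen presentation genes. The long noncoding RNA Morrbid is transcribed from a gene close to Bcl2l11, whose product BIM promotes apoptosis.

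The row of the Morrbid gene (Gm14005) was read in the table without IFN-beta, at 1.79, 4.16 and 1.53 normalized counts in the wild-type libraries against 7.10, 5.24 and 7.16 in those labelled Morrbid-/-. These few counts run against the label, the extent of the deletion is not in the labels, and its level with IFN-beta was not analysed here. Every direction below therefore follows the labels, and those libraries are called knockout-labelled. Each library held 1747634 to 2963149 recovered reads in the setting without IFN-beta and 5788070 to 7355337 in the other, and the median standard error of the genotype difference was 0.17 and 0.12 on the log2 scale. The summed CD8 T cell markers (9 of 9 genes present) were 4619 to 5861 without IFN-beta and 10229 to 11903 with it. The normalized counts of a library added up to 2.23e+06 to 2.53e+06 without IFN-beta and 6.54e+06 to 6.83e+06 with it. Marker values are therefore not comparable between the settings. Of the markers of other cells, Cd4, Ms4a1, Adgre1 and Cd14 were not analysed here, whereas Ighm and Klrd1 had group means of 277 to 509 and 473 to 681. Ighm had means of 291 in wild type and 277 in the knockout-labelled libraries without IFN-beta. With IFN-beta its means were 509 and 373, and it was called lower (log2 difference -0.44). Klrd1 had 573 and 473 without IFN-beta and 681 and 615 with it, and was called in neither setting. From the B cell list of Ighm, Cd79a, Cd79b and Cd74 had lower group means of 1.31 to 16.9, 2.10 to 4.22 and 0.778 to 12.8. From the NK cell list of Klrd1, Klrb1c had 0.255 to 2.32, and Ncr1 and Klra8 had 0 without IFN-beta. Ikzf2, from the CD4 and regulatory T cell list, had means of 235 in wild type and 301 in the knockout-labelled libraries without IFN-beta and of 675 and 819 with it, where it was called higher (limma adjusted p = 0.0165). Foxp3, from the same list, had means of 0.51 to 6.84. The dendritic cell marker Zbtb46 had means of 14.5 in wild type and 47.2 in the knockout-labelled libraries with IFN-beta. Itgax, from the same list, had group means of 0.295 to 1.02. The part of such cells in the results below was not tested.

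The genotype effect shifted downward with IFN-beta in 81 genes (0.892% of those tested) and upward in 40 genes (0.441%). Both groups kept their sign of interaction under every alternative in which their genes were tested. Several alternatives, such as limma without the trend, leave the estimate itself unchanged, so the sign could not change there. Taken alone, the setting without IFN-beta gave 50 genes higher (0.551%) and 9 lower (0.0991%) in the knockout-labelled libraries, and the setting with IFN-beta gave 490 higher (5.4%) and 465 lower (5.12%). Of the 955 genes called with IFN-beta, 929 were not called without it, but the interaction passed for only 61 of those 929. Of the 33 genes called without IFN-beta only, the interaction passed for 26. Leaving out knockout-labelled library 2 with IFN-beta lowered the 955 to 573, and leaving out wild-type library 1 with IFN-beta lowered it to 635 and the 40 upward interactions to 24. Leaving out knockout-labelled library 2 without IFN-beta lowered the 59 calls of that setting to 39.

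The downward group was led by interferon-stimulated genes, of which 48 were in the interferon lists described below. Its usual pattern was a higher level in the knockout-labelled libraries without IFN-beta and a lower or uncalled one with it. In 59 of the 81, the fitted effect was above 0 without IFN-beta and below 0 with it. In 32 of the 40 upward genes the fitted signs were the other way round, and with both kinds together 91 genes (1% of those tested) had a called interaction with opposite fitted signs. By the calls within settings, the 81 held 14 genes that passed in both settings with opposite signs, 26 that passed without IFN-beta only, 23 that passed with it only, 6 that passed in both with the same sign and 12 that passed in neither. The 40 upward genes held 38 that were higher with IFN-beta only and 2 that passed in neither setting. No upward gene was called without IFN-beta.

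**Figure D1:**
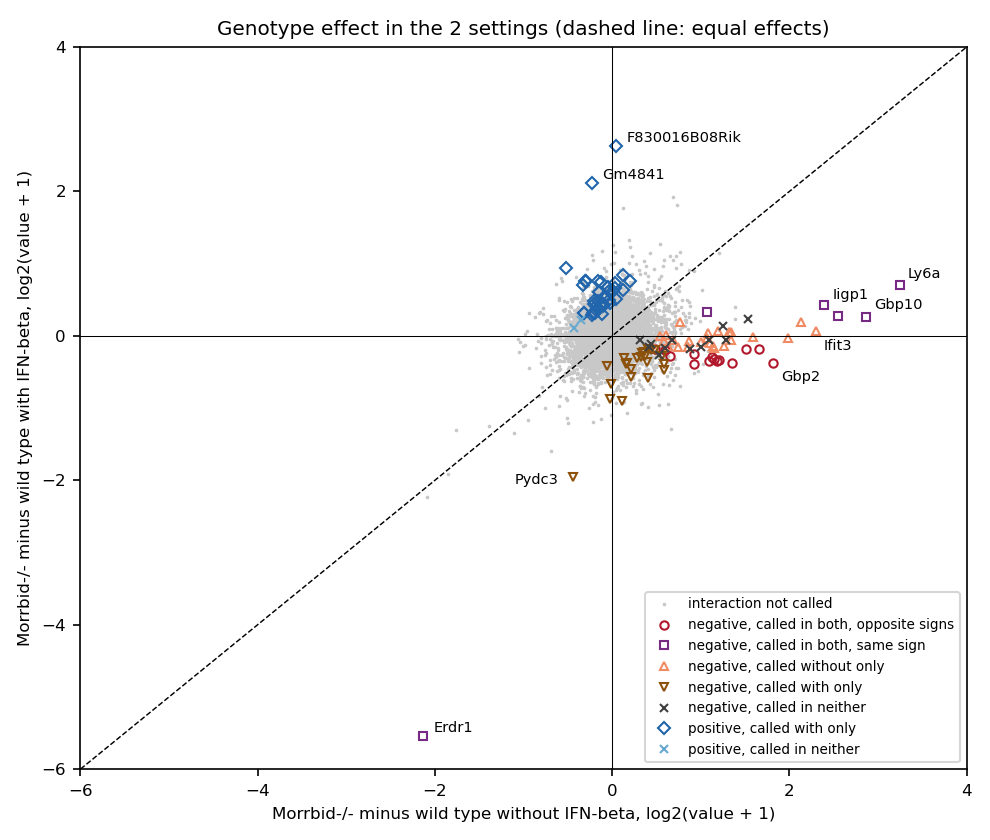
Genotype effect of each tested gene without IFN-beta (x axis) and with it (y axis), both as knockout-labelled minus wild type on log2(normalized count + 1); points on the dashed line have equal effects, and 120 called interactions are drawn in colour by class. Downward interactions spread to the right of 0 near the horizontal axis, upward interactions lie above 0 near the vertical axis, and Pydc3 and Erdr1 stand apart below.

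The sign change was clearest in Gbp2, a guanylate-binding protein that attacks pathogen-containing vacuoles (GRCm38 chr3:142620663-142638008). Its values were 227, 162 and 180.4 in the wild-type libraries against 605, 749 and 646 in the knockout-labelled ones without IFN-beta. They were 41437, 41059.8, 40359 and 42032 in the wild-type libraries against 31362, 32798, 32304 and 31148 in the knockout-labelled ones with IFN-beta. The groups did not overlap in either setting, and the order of the genotypes was reversed between them. The knockout-labelled mean was 3.51 times the wild-type mean without IFN-beta and 0.774 times with it. The log2 differences were 1.81 (SE 0.12, adjusted p = 8.42e-10) and -0.37 (SE 0.05, adjusted p = 3.56e-05), and the interaction was -2.18 (SE 0.13, adjusted p = 1.79e-11). It passed in both settings under every alternative run.

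The same arrangement of calls held for Gbp7, Gbp4 and Gbp6, relatives of Gbp2, and for Tgtp1 and Ifi47, which belong to the IRG family of vacuole-targeting GTPases. Gbp7 read 187, 197 and 171 in the wild-type libraries against 351, 474 and 416 in the knockout-labelled ones without IFN-beta. It read 15896, 16668, 16579.6 and 16321 in the wild-type libraries against 13092, 13246, 12849 and 13210.1 in the knockout-labelled ones with IFN-beta. The genotypes were again separated in both settings with their order turned, and the interaction was -1.47 (SE 0.11, adjusted p = 3.81e-09). Gbp4 had an interaction of -1.53 (SE 0.14, adjusted p = 2.2e-08), from 1.18 without IFN-beta and -0.34 with it. Tgtp1 had -1.54 (SE 0.13, adjusted p = 5.69e-09), from 1.20 and -0.34, and Ifi47 had -1.18 (SE 0.10, adjusted p = 2.39e-08), from 0.92 and -0.25. Gbp6 had -1.83 (SE 0.14, adjusted p = 4.45e-09), but its lower call with IFN-beta (-0.18, SE 0.05, adjusted p = 0.041) was near the threshold. That call of Gbp6 was lost without any 1 of wild-type libraries 1, 2, 3 or 4 or knockout-labelled libraries 1 or 3 with IFN-beta, at adjusted p = 0.0506 to 0.139, and after rescaling to equal totals (0.113). Of the 14 genes with calls of opposite sign, 10 kept both calls after that rescaling and 8 with the calls of both settings taken from the 1 fit. By limma without the trend 3 kept both (Gbp2, Gbp7 and Tgtp1), and the call of Gbp4 without IFN-beta (adjusted p = 0.0643) and that of Ifi47 with it (0.0943) were lost.

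The other 8 genes of that class included Irgm2, an IRG, Irf1, a transcription factor of the interferon response, Nlrc5, the transactivator of MHC class I genes, and Ifit1, which binds viral RNA lacking host cap methylation. They were named after their values were seen. Ifit1 read 48.3, 32.3 and 29.0 in the wild-type libraries against 98.3, 96.9 and 83.9 in the knockout-labelled ones without IFN-beta. It read 29884, 25750.2, 26591 and 27970.0 in the wild-type libraries against 23799, 19962, 20299.9 and 20866 in the knockout-labelled ones with IFN-beta. Scaled to each library's total reads, its level with IFN-beta was 271 times that without it in wild type and 80.9 times in the knockout-labelled libraries. The genotypes were separated in both settings on opposite sides, and the interaction of Ifit1 was -1.73 (SE 0.16, adjusted p = 3.4e-08). Irf1 moved less, with 0.60 (SE 0.10, adjusted p = 0.000792) without IFN-beta, -0.19 (SE 0.05, adjusted p = 0.0243) with it and an interaction of -0.79 (SE 0.10, adjusted p = 1.07e-05). Its call with IFN-beta was lost without wild-type library 2 or 4 or knockout-labelled library 1 or 3 (adjusted p = 0.0638 to 0.0729) and after rescaling (0.0788).

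Promoters of 4 of these genes and of Igtp, described next, are printed because the data bear on genes that interferon induces through short promoter motifs. They come from RefSeq on GRCm38.p6 and run from 250 bases before to 50 bases after the annotated start. Capitals mark matches, on either strand, to 2 copies of GAAA in the same direction with any 2 bases between them (called ISRE-like) or to TTCNNNGAA (called GAS-like, and the same on both strands). The windows are chr3:142620413-142620712 on the plus strand for Gbp2, chr11:58199306-58199605 on the plus strand for Igtp, chr11:58214727-58215026 on the plus strand for Irgm2, chr11:48992197-48992496 on the minus strand for Tgtp1 and chr19:34640639-34640938 on the plus strand for Ifit1.
Gbp2: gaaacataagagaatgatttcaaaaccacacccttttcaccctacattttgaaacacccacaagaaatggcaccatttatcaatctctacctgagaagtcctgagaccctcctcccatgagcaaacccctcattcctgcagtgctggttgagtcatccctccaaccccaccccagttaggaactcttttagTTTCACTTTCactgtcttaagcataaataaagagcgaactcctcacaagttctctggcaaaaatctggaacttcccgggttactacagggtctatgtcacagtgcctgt
Igtp: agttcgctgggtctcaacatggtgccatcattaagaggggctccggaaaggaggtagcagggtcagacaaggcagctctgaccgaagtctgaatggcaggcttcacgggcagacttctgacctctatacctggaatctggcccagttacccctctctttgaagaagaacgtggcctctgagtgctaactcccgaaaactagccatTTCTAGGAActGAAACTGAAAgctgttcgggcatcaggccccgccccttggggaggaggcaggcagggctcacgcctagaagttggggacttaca
Irgm2: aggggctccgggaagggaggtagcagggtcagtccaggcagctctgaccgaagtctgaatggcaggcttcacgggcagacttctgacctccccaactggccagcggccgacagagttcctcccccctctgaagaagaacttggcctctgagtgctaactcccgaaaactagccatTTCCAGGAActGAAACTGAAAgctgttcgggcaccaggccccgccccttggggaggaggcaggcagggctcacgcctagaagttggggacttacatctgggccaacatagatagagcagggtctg
Tgtp1: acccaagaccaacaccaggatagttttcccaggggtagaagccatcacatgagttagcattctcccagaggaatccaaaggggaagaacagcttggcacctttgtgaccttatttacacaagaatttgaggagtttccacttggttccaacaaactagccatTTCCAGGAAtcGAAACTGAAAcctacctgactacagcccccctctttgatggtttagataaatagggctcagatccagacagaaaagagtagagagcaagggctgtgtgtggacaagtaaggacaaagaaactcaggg
Ifit1: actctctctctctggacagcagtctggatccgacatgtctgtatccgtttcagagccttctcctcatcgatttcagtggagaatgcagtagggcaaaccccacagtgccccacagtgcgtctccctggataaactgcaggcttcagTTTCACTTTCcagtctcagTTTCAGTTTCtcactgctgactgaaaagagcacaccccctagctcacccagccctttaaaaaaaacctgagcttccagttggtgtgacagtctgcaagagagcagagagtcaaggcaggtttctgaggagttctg
In Gbp2 the ISRE-like match began 59 bases before the start, and in Ifit1 matches began 104 and 85 bases before it. Igtp, Irgm2 and Tgtp1 each held a GAS-like match whose first base lay 11 bases upstream of the first base of an ISRE-like match. Tgtp2 and Gm12185 held the same spacing, and these 5 were the only ones among the 32851 promoters of the table. All 5 have a called downward interaction, they are IRG genes or relatives that share sequence, and the spacing was noticed after the values were seen. Of all promoters, 3.44% held the ISRE-like and 8.3% the GAS-like sequence. Shares over the classes were not used, because 57 of the 81 downward and 25 of the 40 upward genes matched an entry, fewer than needed for such a check. All 5 printed promoters held a match, but not all downward genes named in the text did. The promoters of Ifi47, Tnfsf8, Tap1, Psme2, Nampt, Dtx3l and Ms4a4c held neither sequence, and those of Irf1 held no ISRE-like one. A match is a description of the letters and not of binding.

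The 26 genes called without IFN-beta only were all higher in the knockout-labelled libraries there. Igtp, an IRG that acts on vacuole membranes, read 274, 249.7 and 295 in the wild-type libraries against 583, 759.5 and 631 in the knockout-labelled ones without IFN-beta. It read 8375, 8699, 8305 and 9026 in the wild-type libraries against 7748, 7955, 7699 and 7806 in the knockout-labelled ones with IFN-beta. The genotypes were separated by more than their spread without IFN-beta, where the difference was 1.26 (SE 0.11, adjusted p = 1.17e-07). With IFN-beta the knockout-labelled values were the lower ones but the difference, -0.14 (SE 0.05, adjusted p = 0.0775), did not pass, and the interaction was -1.40 (SE 0.11, adjusted p = 5.69e-09). Irgm1, a regulatory IRG, read 232, 261 and 269 in the wild-type libraries against 569.7, 623 and 496 in the knockout-labelled ones without IFN-beta. It read 5896, 5876, 5817 and 5950.4 in the wild-type libraries against 5377, 5402, 5169.8 and 5342 in the knockout-labelled ones with IFN-beta. Its interaction was -1.29 (SE 0.11, adjusted p = 6.86e-09), again from a called difference without IFN-beta (1.14) and an uncalled one with it (-0.14).

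Gbp3 had an interaction of -1.31 (SE 0.13, adjusted p = 1.52e-07) and Gvin1, a very large interferon-inducible GTPase, had -1.27 (SE 0.13, adjusted p = 4.84e-07). Gvin1 shares 98.3% of its 75-base stretches with other annotated genes of its family, so its reads could be split between copies. Parp14, a mono-ADP-ribosyltransferase of the interferon response, had -0.94 (SE 0.11, adjusted p = 5.72e-06), and Dtx3l, a ubiquitin ligase that partners PARP9, had -0.77 (SE 0.10, adjusted p = 3.87e-05). The differences without IFN-beta were 1.14, 1.32, 0.87 and 0.63 in that order, and those with it were -0.17, 0.05, -0.07 and -0.14. None of the 4 passed with IFN-beta, where their adjusted p ran from 0.069 for Gbp3 to 0.73 for Gvin1.

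Some genes of this class were barely read in wild type until IFN-beta was present. Ifit3, an adaptor of the Ifit family, read 6.26, 6.24 and 9.94 in the wild-type libraries against 31.4, 39.3 and 51.2 in the knockout-labelled ones without IFN-beta. It read 7558, 6961, 6188 and 7629 in the wild-type libraries against 6861, 7518, 7186 and 8144 in the knockout-labelled ones with IFN-beta. The knockout-labelled mean was 5.43 times the wild-type mean without IFN-beta, whereas the groups overlapped with it, and the interaction was -2.23 (SE 0.19, adjusted p = 1.07e-08). Ifit3 shares 41.1% of its 75-base stretches with Ifit3b. Cxcl10, a chemokine for CXCR3-bearing T cells, read 5.36, 1.04 and 6.88 in the wild-type libraries against 18.2, 24.9 and 16.4 in the knockout-labelled ones without IFN-beta. With IFN-beta Cxcl10 read between 3703 and 4961 in all 8 libraries, and its interaction was -1.95 (SE 0.36, adjusted p = 0.00182). Usp18, which removes ISG15 and restrains the interferon receptor, had -1.29 (SE 0.13, adjusted p = 2.07e-07), from 1.34 without IFN-beta and 0.05 with it. Ifit3, Cxcl10 and Usp18 were named after their values were seen.

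**Figure D2:**
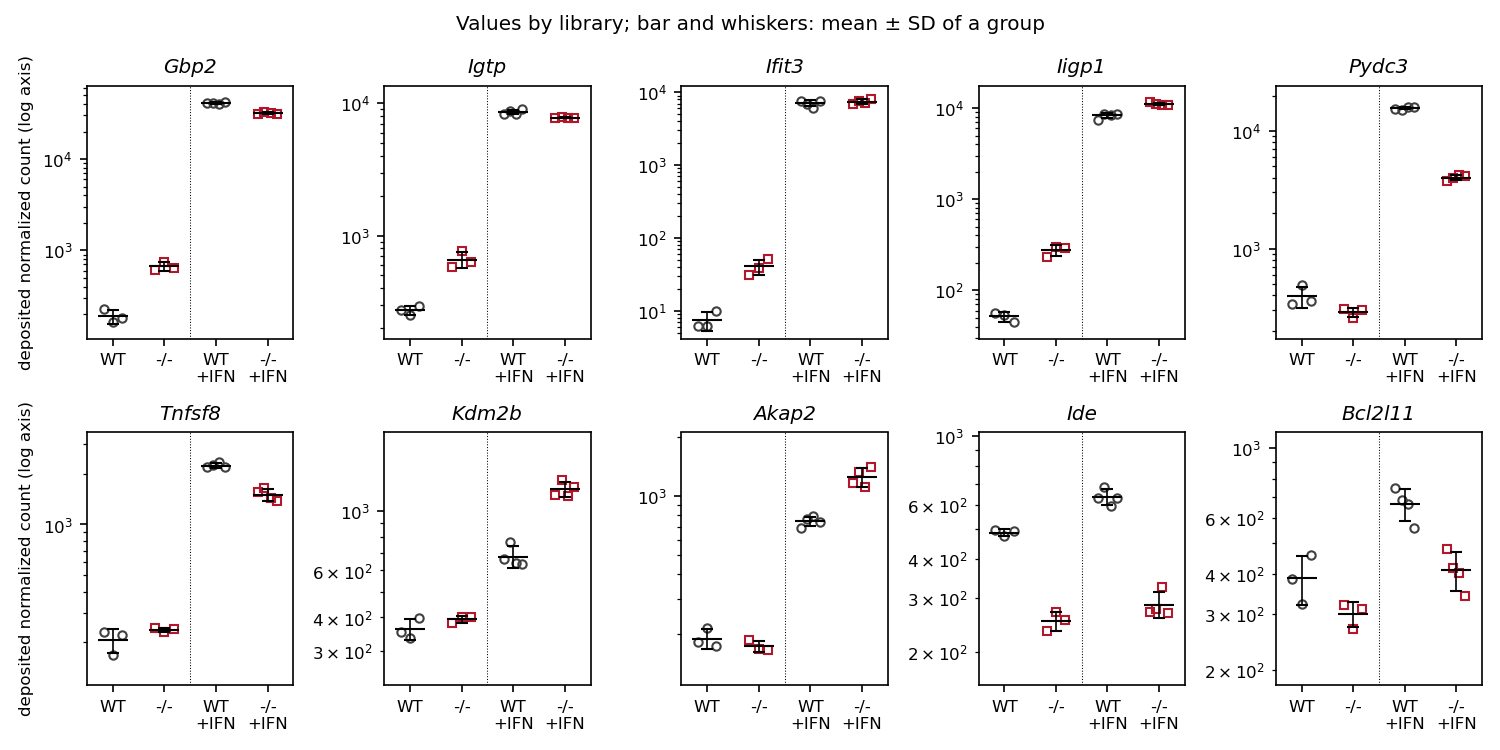
Deposited normalized counts of 10 genes in each library (log axis), with wild type as circles and knockout-labelled as squares, without IFN-beta left of the dotted line and with it to the right; bars and whiskers give mean ± SD. The genotypes change order in Gbp2, converge in Igtp and Ifit3, keep their order at a smaller distance in Iigp1, separate with IFN-beta in Pydc3, Tnfsf8, Kdm2b and Akap2, and keep a similar distance in Ide.

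In 6 downward genes the genotypes differed the same way in both settings, by unequal amounts. Iigp1, an IRG that coats vacuoles of intracellular parasites, read 56.3, 54.1 and 44.3 in the wild-type libraries against 233, 301 and 289.6 in the knockout-labelled ones without IFN-beta. It read 7501, 8569, 8449.8 and 8741 in the wild-type libraries against 11680.5, 11138, 10832 and 10846 in the knockout-labelled ones with IFN-beta. The knockout-labelled libraries were the higher ones in both settings without overlap, at 5.32 and 1.34 times the wild-type mean. The difference fell from 2.39 (SE 0.14, adjusted p = 2.59e-10) to 0.42 (SE 0.06, adjusted p = 2.46e-05), and the interaction was -1.97 (SE 0.13, adjusted p = 9.27e-11). Ms4a4c, a tetraspan membrane protein of T cells, had an interaction of -0.74 (SE 0.12, adjusted p = 0.000703), from 1.07 without and 0.33 with IFN-beta. Ly6a, which encodes the surface protein Sca-1, read 0.894, 5.2 and 0.764 in the wild-type libraries against 24.3, 26.2 and 24.6 in the knockout-labelled ones without IFN-beta. It read 635, 596, 524 and 597 in the wild-type libraries against 1051, 864, 1021 and 911 in the knockout-labelled ones with IFN-beta. Its interaction of -2.54 (SE 0.35, adjusted p = 5.66e-05) rests on 1 to 5 wild-type reads without IFN-beta, and was -1.39 with a pseudocount of 5 in place of 1.

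Erdr1, a gene of the pseudoautosomal region, was the only one of the 6 that was lower in the knockout-labelled libraries. It read 427, 269 and 456 in the wild-type libraries against 65.9, 81.2 and 113 in the knockout-labelled ones without IFN-beta. It read 87.3, 62.5, 89.9 and 157 in the wild-type libraries against 0.916, 0, 0.899 and 3.65 in the knockout-labelled ones with IFN-beta. The groups were separated in both settings, and the knockout-labelled values with IFN-beta were near or at 0. The interaction of -3.41 (SE 0.49, adjusted p = 8.88e-05) depended on the pseudocount and was -1.91 with a pseudocount of 5. Erdr1 shares 35% of its 75-base stretches with another annotated gene.

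The 23 downward genes called with IFN-beta only were all lower in the knockout-labelled libraries there. Pydc3, a pyrin-domain gene of the Ifi200 cluster that RefSeq names Ifi208, was named first by the rule. It read 338, 486 and 360.0 in the wild-type libraries against 305, 258 and 299 in the knockout-labelled ones without IFN-beta. It read 15439, 15181, 15853 and 16081 in the wild-type libraries against 3741, 3970.2, 4242 and 4133 in the knockout-labelled ones with IFN-beta. Without IFN-beta the knockout-labelled values were all below the wild-type ones but the difference, -0.44 (SE 0.12, adjusted p = 0.176), did not pass. With IFN-beta the wild-type mean was 3.89 times the knockout-labelled mean, a difference of -1.96 (SE 0.05, adjusted p = 5.35e-18), and the interaction was -1.52 (SE 0.13, adjusted p = 1.52e-08). Pydc3 shares 11.8% of its 75-base stretches with cluster neighbours.

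Tnfsf8, which encodes CD30 ligand, a costimulatory TNF family member, read 231, 168 and 222 in the wild-type libraries against 243, 230.5 and 240.5 in the knockout-labelled ones without IFN-beta. It read 2186, 2243, 2341 and 2179 in the wild-type libraries against 1568, 1642, 1436 and 1374 in the knockout-labelled ones with IFN-beta. The genotypes overlapped without IFN-beta and the knockout-labelled values were all lower with it, and the interaction was -0.79 (SE 0.13, adjusted p = 0.000466). Tap1, a subunit of the peptide transporter for MHC class I, had -0.59 (SE 0.11, adjusted p = 0.00266), and Psme2, a subunit of the proteasome activator PA28, had -0.64 (SE 0.12, adjusted p = 0.00279). Mndal, a HIN-domain DNA sensor of the Ifi200 cluster, had -0.57 (SE 0.11, adjusted p = 0.00264), and Nampt, the rate-limiting enzyme of NAD salvage, had -0.58 (SE 0.11, adjusted p = 0.00317). In these 4 genes the fitted difference was above 0 without IFN-beta, from 0.34 in Mndal to 0.44 in Psme2, and did not pass. With IFN-beta the 4 differences passed, from -0.23 in Mndal to -0.18 in Tap1, with the adjusted p of Psme2 at 0.0488. By limma without the trend the interactions of Mndal, Tap1 and Psme2 did not pass (adjusted p = 0.0519, 0.0654 and 0.0687).

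In 12 downward genes neither setting passed alone although the difference between them did. Trim34a, a TRIM ubiquitin ligase, had an interaction of -0.58 (SE 0.12, adjusted p = 0.0049) and Derl1, a component of endoplasmic reticulum quality control, had -0.79 (SE 0.16, adjusted p = 0.0055). Ddx58, which encodes the RNA sensor RIG-I, had -0.55 (SE 0.13, adjusted p = 0.0217), and Eif2ak2, which encodes the RNA-activated kinase PKR, had -0.37 (SE 0.09, adjusted p = 0.0394). Each was fitted above 0 without IFN-beta (from 0.31 in Eif2ak2 to 0.52 in Derl1) and below 0 with it (from -0.26 in Derl1 to -0.06 in Eif2ak2). The call of Ddx58 was lost on leaving out wild-type library 1 or knockout-labelled library 2 without IFN-beta (adjusted p = 0.0713 to 0.1). That of Eif2ak2 was lost on leaving out wild-type libraries 1 or 3 or knockout-labelled libraries 2 or 3 without IFN-beta, or wild-type libraries 1, 2, 3 or 4 or knockout-labelled libraries 1, 3 or 4 with IFN-beta (adjusted p = 0.0504 to 0.0971). Ddx58 was also lost under 3 other alternatives (adjusted p = 0.0889 to 0.175) and Eif2ak2 under 8, edgeR and DESeq2 among them (0.057 to 0.206).

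Of the 40 upward genes, 39 were in none of the interferon lists, and the other was the IRG relative F830016B08Rik. With IFN-beta, 38 of the 40 were higher in the knockout-labelled libraries, and none was called without it. Akap2, an anchoring protein for protein kinase A, read 181, 213 and 174 in the wild-type libraries against 187, 168 and 165 in the knockout-labelled ones without IFN-beta. It read 689, 761, 787 and 734 in the wild-type libraries against 1163, 1331, 1113 and 1400.3 in the knockout-labelled ones with IFN-beta. The genotypes overlapped without IFN-beta and did not with it, and the interaction was 0.87 (SE 0.13, adjusted p = 0.000162). Akap2 shares 82.3% of its 75-base stretches with the read-through gene Pakap. Kdm2b, a histone demethylase that recruits Polycomb complexes to CpG islands, read 354, 335 and 399 in the wild-type libraries against 381, 402 and 401 in the knockout-labelled ones without IFN-beta. It read 663, 768, 639 and 634 in the wild-type libraries against 1149, 1315, 1141 and 1229 in the knockout-labelled ones with IFN-beta. The knockout-labelled mean was 1.79 times the wild-type mean with IFN-beta, against 1.09 without it, and the interaction was 0.71 (SE 0.12, adjusted p = 0.000611).

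Chd4, the remodelling ATPase of the NuRD complex, read 1327, 1304 and 1348 in the wild-type libraries against 1363, 1253 and 1402 in the knockout-labelled ones without IFN-beta. It read 2585, 2673, 2644 and 2405 in the wild-type libraries against 3639.7, 4267, 3728 and 4248 in the knockout-labelled ones with IFN-beta. The values of the genotypes overlapped without IFN-beta and were 1.54-fold apart in the mean with it, and the interaction was 0.61 (SE 0.10, adjusted p = 0.000761). Bcl9l, a coactivator of beta-catenin, had 1.03 (SE 0.16, adjusted p = 0.000275), B4galnt1, a ganglioside-synthesizing enzyme, had 0.63 (SE 0.10, adjusted p = 0.000375), and Zhx2, a zinc finger and homeobox repressor, had 0.64 (SE 0.11, adjusted p = 0.00121). The differences with IFN-beta were 0.70 in Bcl9l, 0.66 in B4galnt1 and 0.55 in Zhx2, against -0.33, 0.03 and -0.09 without it. Neither setting passed alone in Mpp5, a polarity scaffold with an interaction of 0.54 (SE 0.13, adjusted p = 0.0305), or in Clip1, a microtubule plus-end protein with 0.57 (SE 0.14, adjusted p = 0.0321). The call of Mpp5 was lost on leaving out wild-type libraries 1 or 2 or knockout-labelled library 3 without IFN-beta, or wild-type libraries 1 or 2 or knockout-labelled libraries 1 or 3 with IFN-beta (adjusted p = 0.0535 to 0.0801). That of Clip1 was lost on leaving out wild-type library 2 or knockout-labelled libraries 2 or 3 without IFN-beta, or wild-type libraries 1 or 3 or knockout-labelled libraries 1, 2 or 4 with IFN-beta (adjusted p = 0.0536 to 0.121). Each was also lost under 3 other alternatives, limma without the trend among them, at adjusted p = 0.0552 to 0.0787 for Mpp5 and 0.0563 to 0.18 for Clip1.

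**Figure D3:**
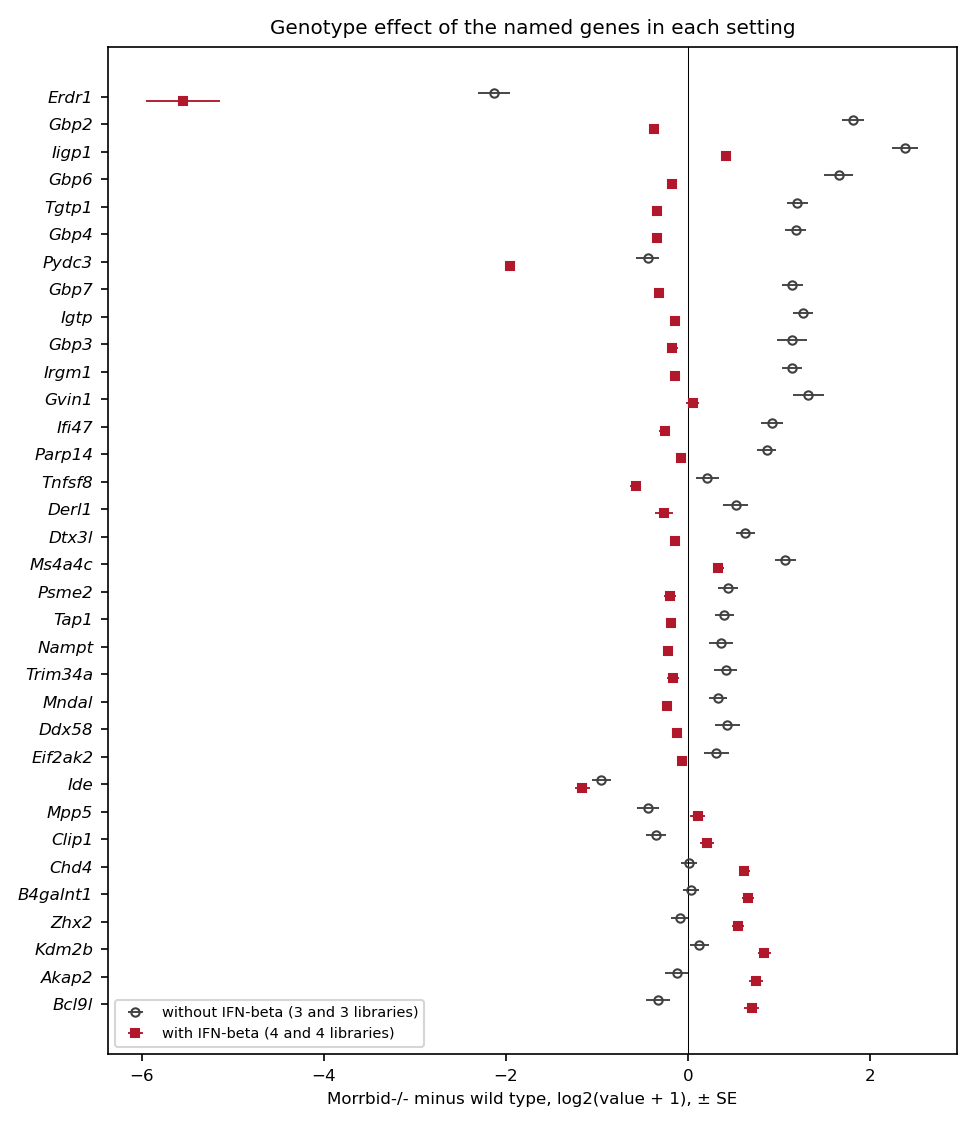
Genotype effect of the 33 genes named by rule from the interaction classes, and of Ide, without IFN-beta (open circles) and with it (filled squares), as knockout-labelled minus wild type on log2(normalized count + 1), with whiskers of 1 SE. Most downward genes pair a circle right of 0 with a square just left of it, whereas upward genes pair a circle near 0 with a square to the right.

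A pair of upward genes with low counts had the largest upward interactions and were named after their values were seen. F830016B08Rik, an IRG relative, read 10.7, 18.7 and 12.2 in the wild-type libraries against 14.2, 14.4 and 13.3 in the knockout-labelled ones without IFN-beta. It read 4.72, 7.17, 8.17 and 14.6 in the wild-type libraries against 66.0, 42.2, 51.2 and 63.9 in the knockout-labelled ones with IFN-beta. Gm4841, its neighbour, read 12.5, 8.32 and 13.0 in the wild-type libraries against 7.1, 7.86 and 14.3 in the knockout-labelled ones without IFN-beta and 10.6, 26.6, 29.2 and 15.6 in the wild-type libraries against 79.7, 90.7, 80.9 and 94.0 in the knockout-labelled ones with IFN-beta. Both overlapped between genotypes without IFN-beta and were separated with it, with interactions of 2.58 (SE 0.44, adjusted p = 0.000825) and 2.35 (SE 0.43, adjusted p = 0.00209). They lie within 200 kb of Iigp1, whose interaction had the other sign.

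The upward group held the naive-state transcription factors Lef1 and Tcf7. In the list of naive-state genes, 3 of 20 tested members had a called upward interaction, against 0.441% of all tested genes, and none a downward one. The list median was 0.25 against 0.01 over all tested genes. This list was chosen with results of these libraries known, so the count is a description. Lef1, a TCF family factor of naive and memory T cells, read 1104, 1334 and 1192 in the wild-type libraries against 1143, 1095 and 1190.1 in the knockout-labelled ones without IFN-beta. It read 1733, 1873, 1875 and 2115 in the wild-type libraries against 2549, 2677, 2429.9 and 3294 in the knockout-labelled ones with IFN-beta. There the genotypes did not overlap, and the interaction was 0.60 (SE 0.13, adjusted p = 0.01). Tcf7, which encodes the related factor TCF1, had 0.52 (SE 0.11, adjusted p = 0.0102). The call of Tcf7 was lost by limma without the trend (adjusted p = 0.129), with quantile normalization (0.0719) and after thinning with fewer libraries (0.124), and that of Lef1 by limma without the trend (0.143). Ccr7, the lymph node homing receptor, lay just outside the threshold with 0.50 (SE 0.13, adjusted p = 0.051), and so did Rest, a transcriptional repressor, with 0.48 (SE 0.12, adjusted p = 0.0537). Just inside it were Lasp1 (0.60, SE 0.15, adjusted p = 0.0483), an actin-binding protein, and Ptov1 (1.46, SE 0.37, adjusted p = 0.0483). The call of Lasp1 was lost on leaving out wild-type libraries 1 or 2 or knockout-labelled libraries 2 or 3 without IFN-beta, or wild-type libraries 1, 2 or 4 or knockout-labelled libraries 2, 3 or 4 with IFN-beta (adjusted p = 0.0535 to 0.156). That of Ptov1 was lost on leaving out wild-type libraries 1, 2 or 3 or knockout-labelled libraries 1 or 3 without IFN-beta, or wild-type libraries 1, 2, 3 or 4 or knockout-labelled libraries 1, 2, 3 or 4 with IFN-beta (adjusted p = 0.0511 to 0.132). Ccr7 passed on leaving out wild-type library 3 without IFN-beta, or wild-type library 4 or knockout-labelled library 2 with IFN-beta (adjusted p = 0.0172 to 0.032), and Rest on leaving out wild-type library 3 or knockout-labelled library 3 with IFN-beta (adjusted p = 0.0181 to 0.0309). Under alternatives that left out no single library and had no replicate block, Lasp1 was lost in 8 (adjusted p = 0.0544 to 0.374) and Ptov1 in 9 (0.0508 to 0.227), and Ccr7 and Rest passed in 5 each (0.0294 to 0.0457 and 0.028 to 0.0495).

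The interferon lists carried most of the downward group. Of 143 listed genes, 108 were tested, and 48 had a called downward interaction, 1 an upward one and 59 none. The fitted interaction was below 0 in 94 of the 108, with a median of -0.45, where all tested genes had 0.01. Without IFN-beta 35 of them were higher and 0 lower in the knockout-labelled libraries, and with it 10 were higher and 23 lower. Over all tested genes 0.892% had a called downward interaction. The share higher was 0.551% and lower 0.0991% without IFN-beta, and 5.4% and 5.12% with it. The lists were chosen with results of these libraries known, so these counts are a description.

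The count ran unevenly from receptor to effector. Of 22 tested receptor, JAK-STAT and IRF genes, 3 were called downward, with a median of -0.18. The receptor chains Ifnar1 (-0.12, SE 0.11, adjusted p = 0.717) and Ifnar2 (-0.22, SE 0.15, adjusted p = 0.627) and the kinase Jak1 (0.05, SE 0.09, adjusted p = 0.861), named here for their place in the pathway, did not pass. Irf9, part of the complex with STAT2, did have a called downward interaction. Its knockout-labelled mean was 1.46 times the wild-type mean without IFN-beta and 1.00 times with it. Of the effector GTPases, 9 of 9 GBPs and 7 of 9 IRGs were called downward, with medians of -1.53 and -1.40, and so were 3 of 4 very large GTPases and 3 of 4 Ifit genes. Among OAS, Mx and other antiviral effectors the count was 13 of 28 with a median of -0.49, among ISG15 conjugation genes 2 of 4 and among pyrin and HIN genes 3 of 6. In MHC class I presentation it was 5 of 22 with a median of -0.31, and H2-K1, a classical class I heavy chain, had 0.00 (SE 0.11, adjusted p = 0.997).

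**Figure D4:**
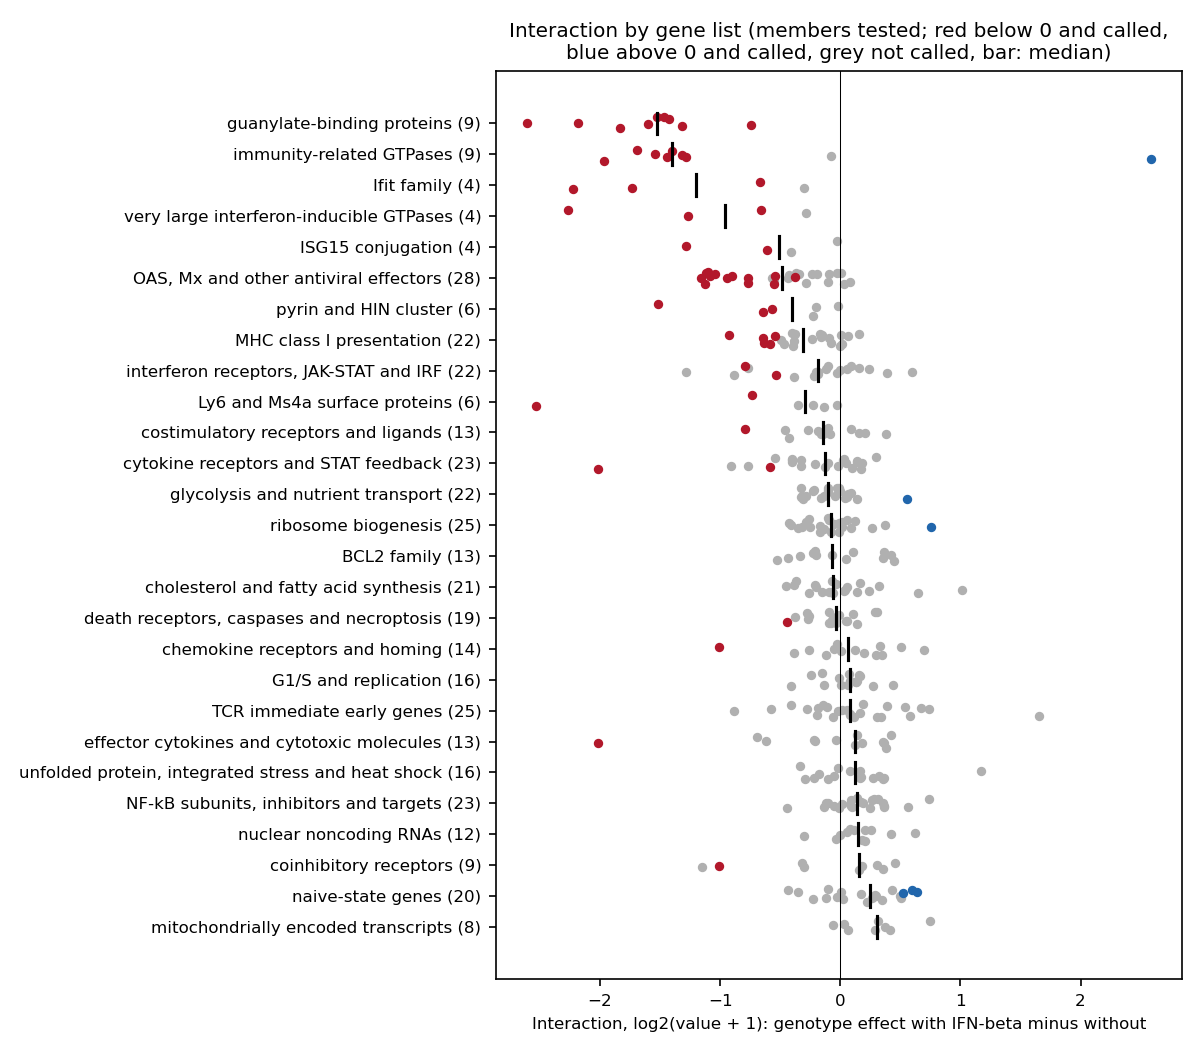
Interaction of each tested member of 27 gene lists (x axis, log2 scale), 1 line per list with the number tested in parentheses; red points are called below 0, blue above 0 and grey not called, and the bar is the list median. GBPs and IRGs lie furthest left, apart from the upward F830016B08Rik, and the lists not drawn up as interferon lists have medians from -0.29 to 0.30.

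In the lists not drawn up as interferon lists, 13 of 284 tested genes had a called interaction (4.58%, against 1.33% of all tested genes), 8 downward and 5 upward. These lists too were chosen with results known. The 25 tested immediate early genes of antigen receptor signalling and the 23 NF-kB genes held no called interaction, a count near the share over all tested genes. With IFN-beta 7 and 12 of them were higher in the knockout-labelled libraries, against 5.4% of all tested genes. Rela, the p65 subunit of NF-kB, had 0.56 (SE 0.15, adjusted p = 0.0684), from 0.11 without and 0.67 with IFN-beta. Il12rb2, a chain of the IL-12 receptor, had -2.01 (SE 0.35, adjusted p = 0.00106), and Cd274, which encodes PD-L1, had -1.01 (SE 0.15, adjusted p = 0.000118). Both were higher in the knockout-labelled libraries without IFN-beta, by 1.98 and 0.86, and at -0.03 and -0.15, uncalled, with it. Pim2, a survival kinase induced by cytokines, had -0.58 (SE 0.13, adjusted p = 0.0101), and the caspase gene Casp8 had -0.44 (SE 0.10, adjusted p = 0.0125). Cxcr6, a homing receptor, had -1.01 (SE 0.24, adjusted p = 0.0282). Scaled to total reads and untested, the wild-type level with IFN-beta was 19.7 times that without it in Il12rb2 and 6.66 times in Cd274. It was 5.38 times in Casp8, 3.71 times in Pim2 and 1.125 times in Cxcr6. A place outside the interferon lists is therefore not a place outside the response to IFN-beta. Odc1, the rate-limiting enzyme of polyamine synthesis, had 0.56 (SE 0.14, adjusted p = 0.0321), and Ubtf, a factor of RNA polymerase I, had 0.76 (SE 0.18, adjusted p = 0.0217). The call of Casp8 was lost on leaving out knockout-labelled library 3 without IFN-beta (adjusted p = 0.0511). That of Cxcr6 was lost on leaving out wild-type library 3 or knockout-labelled library 1 without IFN-beta, or wild-type libraries 2, 3 or 4 or knockout-labelled library 3 with IFN-beta (adjusted p = 0.055 to 0.0926). That of Odc1 was lost on leaving out wild-type libraries 1 or 3 or knockout-labelled libraries 2 or 3 without IFN-beta, or wild-type libraries 1, 2 or 4 or knockout-labelled libraries 1 or 2 with IFN-beta (adjusted p = 0.0517 to 0.133). That of Ubtf was lost on leaving out wild-type libraries 1 or 2 or knockout-labelled library 2 without IFN-beta, or wild-type library 1 or knockout-labelled library 4 with IFN-beta (adjusted p = 0.0519 to 0.064). Rela passed on leaving out wild-type library 2 or knockout-labelled library 1 without IFN-beta, or wild-type library 4 with IFN-beta (adjusted p = 0.019 to 0.0498). By limma without the trend Il12rb2 (adjusted p = 0.0774), Pim2 (0.0689) and Ubtf (0.0933) were lost, and Il12rb2 also with robust empirical Bayes (0.108). Casp8 and Cxcr6 were lost under 2 other alternatives each (adjusted p = 0.0707 to 0.1 and 0.0915 to 0.165) and Odc1 under 3 (0.053 to 0.181).

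The gene next to Morrbid did not pass. Bcl2l11 read 386, 322 and 459 in the wild-type libraries against 320.3, 268 and 311 in the knockout-labelled ones without IFN-beta. It read 746, 687, 668 and 560.5 in the wild-type libraries against 482, 419.8, 404 and 340.3 in the knockout-labelled ones with IFN-beta. Every knockout-labelled value was below every wild-type value in each setting, by a narrow margin without IFN-beta. The differences were -0.36 (SE 0.12, adjusted p = 0.423) and -0.69 (SE 0.10, adjusted p = 4.2e-05), so Bcl2l11 was called with IFN-beta only, but its interaction of -0.33 (SE 0.17, adjusted p = 0.44) did not pass. The 13 tested BCL2 family genes held no called interaction, which at 1.33% over all tested genes is near the background, and Bcl2 had -0.44 (SE 0.14, adjusted p = 0.134).

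Few genes were called in both settings with the same sign. Besides the 6 with a called interaction, 6 genes were called in both settings with the same sign and no interaction, and Ide, which encodes insulin-degrading enzyme, was the only one that met the rule for naming. Ide read 496, 474 and 492 in the wild-type libraries against 234, 269.8 and 253 in the knockout-labelled ones without IFN-beta. It read 632, 686, 596 and 631 in the wild-type libraries against 269, 276, 325 and 267 in the knockout-labelled ones with IFN-beta. The knockout-labelled mean was 0.517 times the wild-type mean without IFN-beta and 0.447 times with it, without overlap, at log2 differences of -0.95 (SE 0.10, adjusted p = 1.64e-06) and -1.16 (SE 0.08, adjusted p = 3.62e-09), and the interaction was -0.21 (SE 0.12, adjusted p = 0.53). The interaction did not pass, which does not show that the effects were equal.

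The downward genes lay close together on chromosomes. Of the 81, 31 lay within 200 kb of another downward gene (38.3%), whereas 2.66% of the tested genes with no call lay that near to one. Among the 39 upward genes with a position the share was 2 genes, or 5.13%. The 31 formed 9 runs. On chromosome 5, from 105012513 to 105295871, all 5 tested genes were downward (Gbp8, Gbp9, Gbp4, Gbp10 and Gbp6), and on chromosome 3, from 142496934 to 142638008, all 4 were (Gbp5, Gbp7, Gbp3 and Gbp2). On chromosome 11, 6 of 7 tested genes from 48865245 to 49135387 were, among them Irgm1, Tgtp1 and Ifi47, and 3 of 3 from 58183843 to 58222783 (Gm12250, Igtp and Irgm2). Runs of 3 of 3 also lay on chromosome 1 (Pydc3, Mndal and Ifi203), chromosome 16 (Parp14, Dtx3l and Parp9) and chromosome 19 (Ifit3, Ifit1bl1 and Ifit1). Members of such families share sequence and are not independent: Tgtp1 shares 77.2% and Gbp6 67.3% of 75-base stretches with relatives.

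The downward and upward groups also differed in how their wild-type level stood between the settings. Levels were scaled to each library's total reads and set side by side, untested, because the tables were normalized separately. The wild-type level with IFN-beta was a median of 11.9 times that without it in the downward genes, 0.501 times in the upward genes and 0.694 times over all tested genes. In the knockout-labelled libraries the medians were 5.13, 0.859 and 0.701. The wild-type ratio exceeded 4 in 62 of the 81 downward genes, in 0 of the 40 upward genes and in 185 of the 9078 tested. The interaction is by its construction also the difference between genotypes in this response, so the gap between the medians of the genotypes restates it on another scale. The wild-type response is a term of that contrast, so its medians are not set by the interaction but are not independent of it either. The median GC content of the longest transcript was 46% in the downward genes (76 with a value), 52.9% in the upward genes and 48.8% over all tested genes. With the GC and length trend removed from each library, an alternative added after seeing the data, 99 downward and 45 upward interactions passed.

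The settings differed both in depth and in the number of libraries. With the setting with IFN-beta thinned to the depth of the other and to replicates 1 to 3, also added after seeing the data, 499 genes were called with IFN-beta in place of 955, and 70 downward and 30 upward interactions passed. Both were changed at once there, so their shares in the fall cannot be told apart. Rescaling all libraries to equal totals moved the share of higher genes among the calls with IFN-beta from 51.3% to 67.9%.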

How the data were processed

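Total RNA of 14 libraries was compared. For each setting the authors deposited 1 table of DESeq2-normalized counts (a signal of at least 0 per gene). Tools named in the submitters' processing notes are DESeq2, featureCounts, STAR 2.5 and Trimmomatic, with builds GRCm38 and mm10 and no roles; strand setting and annotation: not given in the sources used here. All values of a library were multiples of 1 step, so whole reads were recovered for 100% of values (within 0.01). Replicates of a group were not copies of each other (chi-square per degree of freedom 1.82 to 8.52).

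The interaction was a contrast of 1 limma fit (3.58.1, R 4.3.3) of log2(value + 1) with a mean-variance trend over all libraries. Calls within a setting came from a fit of that table alone, since depths differed. Fold changes on this scale understate those of low genes. Adjusted p-values are Benjamini-Hochberg over the 9078 genes, with a threshold of 0.05. The tables were normalized separately, so levels were not tested across them. edgeR 4.0.16 and DESeq2 1.42.0 ran on recovered reads as alternatives.

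Named by rule, among genes with a symbol that is no model name and a mean of at least 50 in each table, were up to 6 per class and sign by smallest p. Without these limits on symbol and mean, the 5 interferon genes and up to 2 genes per other list with the smallest p were also named. So were Bcl2l11 and 2 genes on each side of the threshold. Members and lists were chosen with earlier results of these data known. For 1 gene that met the rule no result is reported, but the counts include it. Positions are RefSeq GRCm38.p6; shared 75-base stretches and GC content are from GENCODE M21 transcripts. The script for the interaction was tested on simulated counts.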

Additional observations from a re-analysis of the deposited data

Results flagged for a closer look

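The genotype effect differed between the settings, by the interaction term of limma at an adjusted p under 0.05, in all 33 genes named from the interaction classes. They were chosen by passing that test in these same libraries, so that all of them pass was fixed in advance. Their differences are given here on the log2 scale. Where both settings passed with opposite signs, the difference was -2.18 in Gbp2, -1.83 in Gbp6, -1.54 in Tgtp1, -1.53 in Gbp4, -1.47 in Gbp7 and -1.18 in Ifi47. Where both passed with 1 sign, it was -3.41 in Erdr1, -1.97 in Iigp1 and -0.739 in Ms4a4c. Where only the setting without IFN-beta passed, it was -1.4 in Igtp, -1.31 in Gbp3, -1.29 in Irgm1, -1.27 in Gvin1, -0.943 in Parp14 and -0.769 in Dtx3l. Where only the setting with IFN-beta passed, it was -1.52 in Pydc3, -0.79 in Tnfsf8, -0.642 in Psme2, -0.587 in Tap1, -0.584 in Nampt and -0.57 in Mndal among downward genes, and 1.03 in Bcl9l, 0.872 in Akap2, 0.714 in Kdm2b, 0.637 in Zhx2, 0.625 in B4galnt1 and 0.609 in Chd4 among upward genes. Where neither passed alone, it was -0.787 in Derl1, -0.578 in Trim34a, -0.555 in Ddx58, -0.375 in Eif2ak2, 0.569 in Clip1 and 0.544 in Mpp5.

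In 6 of the 140 groups of 4 libraries checked over the named genes, 1 library lay far from the other 3 by Dixon's criterion, which chance alone meets in about 1 of 20 groups. Among knockout-labelled libraries with IFN-beta these were library 2 for Gbp4 (16780, the highest), library 3 for Ide (325.3, the highest) and library 3 for Cxcr6 (68.3, the lowest). Among wild-type libraries with IFN-beta they were library 1 for Irf4 (2211), library 4 for Slamf6 (1754) and library 4 for Rmrp (531.2).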

How the results depend on the processing

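All tested members of the 121 kept the sign of their interaction under the 31 alternatives. The members were chosen by passing in these same libraries. Limma without the trend, robust empirical Bayes and the replicate block within settings, among others, leave the estimate unchanged, so the sign was fixed there. Leaving out 1 library gave 24 to 47 upward and 71 to 98 downward interactions, 73 to 114 with opposite fitted signs, 10 to 20 genes called in both settings with the same sign, and 39 to 69 and 573 to 1002 genes called without and with IFN-beta. The 12 genes called in both settings with the same sign became 20 without wild-type library 3 or knockout-labelled library 1 of the setting without IFN-beta, 5 with a mean of at least 50 and 19 after rescaling. Limma without the trend gave 15 upward and 51 downward interactions, 49 with opposite fitted signs, 5 genes called alike in both settings, 21 called without and 339 with IFN-beta. With the 16S share as a covariate these were 70 upward, 142 opposite, 25 alike and 103 without IFN-beta. With calls of both settings from the 1 fit, 117 genes were called without and 554 with IFN-beta, and 21 alike. Requiring calls in both settings reduced the 91 genes with opposite fitted signs to 14. By edgeR 38 upward and 76 downward interactions passed, and by DESeq2 45 and 106. The cause of these differences was not tested.

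The main fits took the libraries as unpaired. Correlations of same-numbered deviations ran from -0.02 to 0.38 between genotypes and -0.02 to 0.15 between settings. Between genotypes 4 of 7 pairs were best with their own number, and between settings 1 of 6. Whether libraries of the same number shared a source or a handling step was not tested. With the replicate number as a block within settings, 148 upward and 163 downward interactions passed, 245 with opposite fitted signs, 68 genes alike in both settings and 176 without IFN-beta. With the block within genotypes, 45 upward and 88 downward passed and 238 genes were called with IFN-beta. Under that block 2 of the 14 genes with calls of opposite sign kept both (Gbp2 and Ifit1). The calls with IFN-beta of Gbp4 (adjusted p = 0.512), Gbp7 (0.262), Tgtp1 (0.0696), Ifi47 (0.294) and Gbp6 (0.959) did not pass, and Gm12250 was fitted at 0.03. With the block within settings the interaction of Bcl2 passed (0.0439).

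At the depth of the setting without IFN-beta and with replicates 1 to 3, an alternative chosen after seeing the data, 499 genes were called with IFN-beta in place of 955. Depth and library number changed together there, and depth alone was not tested.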

Other observations

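Beyond the called interactions, 7 genes passed without IFN-beta only and had no called interaction. Among them were Eomes, a T-box factor of effector and memory CD8 T cells, and Kit, H2-T23 and Ccr9, named after their values were seen. Eomes read 51.9, 40.6 and 64.2 in the wild-type libraries against 98.3, 83.8 and 96.2 in the knockout-labelled ones without IFN-beta, a difference of 0.84 (SE 0.18, adjusted p = 0.0224). With IFN-beta the difference was 0.22 (SE 0.07, adjusted p = 0.0618), and the interaction was -0.62 (SE 0.16, adjusted p = 0.0612). The interaction of Eomes passed on leaving out wild-type library 3 without IFN-beta (adjusted p = 0.00377) or knockout-labelled library 2 with it (0.0401), and under 3 alternatives that left out no library and had no replicate block (0.0268 to 0.0475).

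Of the 868 genes called with IFN-beta only and without a called interaction, 446 were higher and 422 lower in the knockout-labelled libraries.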
